A study of Mus musculus with 4 samples.

Results

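Foxp3, Il2ra, Ctla4, Ikzf2, Icos, Tnfrsf4 and Tnfrsf18 are 7 genes by which regulatory T cells (Treg cells) are commonly described. They were chosen by name, and raw UMIs (unique molecular identifiers, 1 per captured RNA molecule) of these 7 of 55253 genes were read in both deposited gene matrices. The data are single-cell RNA profiles of mouse mammary gland cells sorted for CD45, the surface marker of blood-derived cells, after collagenase type 2 digestion, made with 10x Genomics 3′ chemistry. Each of 2 libraries, called the earlier and the later library after the years in their names, pooled several hash-tagged samples, in which an antibody-borne DNA tag marks the origin of a cell.

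The deposited tag sheets name Nulliparous, Gestation and Lactation samples in the earlier library. For the later library they name Gestation, Lactation, Involution, Regression, Balb/c and GF samples. These 9 named samples are used here. Balb/c and GF (germ-free) are given as backgrounds by name, and no stage is stated for them. The labels state neither the strain of the other samples nor ages nor how many animals stand behind a tag. A name stands for 1 sample per library. P-values reflect only the spread between hash samples, which the fits pool partly or wholly over genes. A hash sample may hold 1 animal or several. Tag HT2 is Germ-free in the sheets, but the earlier library's sample title lists Involution and no germ-free sample. HT2 cells therefore stayed out of every main comparison, and were added only in alternative fits of the comparisons between gates or cell populations. Tag HT4, Nulliparous in the sheets, had 1 count in the later library, so Nulliparous is a sample of the earlier library only.

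Treg cells are CD4 T cells that restrain other immune cells. Foxp3 is the transcription factor that sets their programme, and Ikzf2 encodes Helios, a transcription factor of many Treg cells that other T cells and innate lymphocytes can also express. Il2ra encodes CD25, the alpha chain of the interleukin-2 receptor, which Treg cells use to take up interleukin-2, and which group 2 innate lymphoid cells (ILC2) carry too. Ctla4 is an inhibitory receptor that competes with CD28 for its ligands, and Icos is a costimulatory receptor of the same family. Tnfrsf4 (OX40) and Tnfrsf18 (GITR) are costimulatory receptors of the tumour necrosis factor receptor family.

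On the mouse build GRCm38.p6, Foxp3 lies on chromosome X from 7579676 to 7595243, and Il2ra on chromosome 2 from 11642792 to 11693194. Chromosome 1 holds Ctla4 from 60909025 to 60915832, Icos from 60960773 to 61000322 and Ikzf2 from 69531207 to 69687351. Chromosome 4 holds Tnfrsf4 from 156013595 to 156016613 and Tnfrsf18 from 156026322 to 156028894. Ctla4 and Icos are 44940 bases apart, and Tnfrsf4 and Tnfrsf18 are 9708 bases apart. RefSeq's annotation places Flicr and Ccdc22 over Foxp3, Gm39760 over Il2ra, Sdf4 over Tnfrsf4 and Gm16008 over Tnfrsf18. The labels do not say how reads of overlapping genes were counted, so counts of these 4 members are uncertain to that extent.

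The 3 promoters below are shown because Foxp3 is the gene that splits the cells in the comparisons, and Il2ra and Ctla4 were among the members that differed most between Foxp3-positive and Foxp3-negative cells. Each is the 250 bases before the RefSeq start on the plus strand of GRCm38.p6, at chrX:7579426-7579675, chr2:11642542-11642791 and chr1:60908775-60909024 in that order. Capitals mark GGAAA, the core bound by NFAT factors, read on either strand, and the TATA box letters TATAAA.
Foxp3: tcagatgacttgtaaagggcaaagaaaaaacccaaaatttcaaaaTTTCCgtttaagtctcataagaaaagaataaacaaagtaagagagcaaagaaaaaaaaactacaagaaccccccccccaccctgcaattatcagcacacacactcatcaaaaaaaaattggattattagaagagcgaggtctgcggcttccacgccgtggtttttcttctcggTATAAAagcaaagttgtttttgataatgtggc
Il2ra: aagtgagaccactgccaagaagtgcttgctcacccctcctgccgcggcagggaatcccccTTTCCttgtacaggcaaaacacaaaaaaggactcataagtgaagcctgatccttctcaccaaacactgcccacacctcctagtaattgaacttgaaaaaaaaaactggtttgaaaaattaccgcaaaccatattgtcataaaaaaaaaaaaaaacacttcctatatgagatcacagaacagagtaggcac
Ctla4: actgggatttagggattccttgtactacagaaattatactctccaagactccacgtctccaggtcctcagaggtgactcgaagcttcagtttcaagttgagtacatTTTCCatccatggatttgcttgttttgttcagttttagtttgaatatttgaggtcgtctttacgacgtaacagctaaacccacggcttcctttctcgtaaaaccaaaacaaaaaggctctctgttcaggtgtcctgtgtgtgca
The RefSeq table held 5 of the 7 members, with 6 windows in all (2 for Foxp3). GGAAA or its reverse TTTCC was found in all 6, beside 55.57% of 32851 promoter windows of the same length. TATAAA or TTTATA, in 12.37% of windows, was found 32 bases before the first Foxp3 start. TTCNNNGAA, a STAT-type motif in 7.02% of windows, was in the second Foxp3 window and in that of Tnfrsf18. TGTTTAC (forkhead, 3.166% of windows) and TGTGGT (Runx, 14.05%) were searched on both strands and were not among the letters of these 6 windows.

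After filters on cells, 12464 cells of named samples in the earlier and 12815 in the later library entered the analysis. Cells that passed quality filters had a median of 1599 UMIs in the earlier and 3049 in the later library. In the earlier library a single gene entry, CT010467.1, held 1801 to 1898 of every 10000 UMIs per sample, and in the later library 566.7 to 650.2, so levels are compared within a library. The libraries shared 72 barcodes among analysed cells. Tag counts were low in the later library, with a median of 6 per Lactation cell and 13 per Gestation cell. Cells with 3 or more UMIs of myeloid genes entered no gate. CD45 itself checked the sort, since Ptprc had a UMI in 78.5% to 87.5% of cells per earlier-library sample and in 90.2% to 96.3% per later-library sample.

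Cells were gated on raw UMIs. T cells had a Cd3e UMI and were split into a CD4 gate (Cd4 without Cd8b1; 157 and 626 cells in the earlier and the later library), a CD8 gate (Cd8b1 without Cd4; 527 and 1279) and a gate with neither (2220 and 2414). Cd3-negative lymphoid cells were split into natural killer (NK) cells (1684 and 1100), ILC2 (40 and 101) and B cells (1530 and 2773). A gate on 1 UMI misses cells whose Cd4 RNA was not captured, so the gate with neither is a mixture. In it, Trdc, the gamma-delta T cell receptor gene, had a UMI in 8.55% to 27.9% of cells per sample, and Cd8a in 10.7% to 28.8%. Levels below are UMIs per 10000 UMIs of all cells of a sample in a gate.

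Foxp3 RNA was rare and was found mostly in T cells. Of the analysed cells, 70 in the earlier and 182 in the later library had a Foxp3 UMI, and 51 and 96 of these had exactly 1. A Cd3 gene was detected in 55 and 158 of them, but Cd4 in only 12 and 80. In the CD4 gate, 3.82% of the earlier-library cells and 8.47% of the later-library cells had a Foxp3 UMI. The B cell gate, which should lack the gene, had 0 of 1530 cells (a count that allows up to 0.196%) and 0.216%, with a median of 890 and 2013 UMIs per cell beside 1327 and 2812 in the CD4 gate. Of the NK cells, 0 of 1684 (up to 0.178%) and 0.455% had one, and of the ILC2 0 of 40 (up to 7.50%) and 0 of 101 (up to 2.97%). These limits are 3 counts of the cells and cover counting error only.

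In the CD4 gate of the earlier library, the Foxp3 level was 0.338 in the Nulliparous sample and 0 in the Gestation and Lactation samples, which had only 32 and 22 such cells. In the later library it was 0.436 for Gestation, 0.549 for Lactation, 0.558 for Involution, 0.881 for Regression, 0.233 for Balb/c and 0.696 for GF. Regression had the highest level and Balb/c the lowest, each from 1 sample with no replicate. As a share of cells, 11 of 80 Regression cells had a Foxp3 UMI (13.8%, exact 95% binomial interval 7.07% to 23.3%). The Balb/c share was 3 of 77 (3.90%, 0.811% to 11%), and these intervals, which cover counting error only, overlap. With each cell thinned to 1000 UMIs the shares were 7.50% in Regression and 2.60% in Balb/c, and Lactation (1.67%) and Involution (2.50%) were below Balb/c. Thinned to 500 UMIs in a separate random draw, Regression (2.50%, 2 of 80 cells) was below Lactation (5%, 3 of 60) and GF (3.33%, 2 of 60). Lactation had 1 positive cell of 60 at 1000 UMIs and 3 at 500, so the order of these samples rests on few cells and on the draw. Among T cells with any Cd3 gene, a larger set, the Regression share was 4.06% and the other later-library samples lay between 1.57% and 2.63%, while the earlier library gave 1.5% in Nulliparous, 0.738% in Gestation and 0.186% in Lactation. Thinned to 1000 UMIs, the shares of this set were 2.36% in Regression and 0.789% to 1.58% in the other later-library samples. Thinned to 500 UMIs, Regression was at 1.01%, GF at 0.999% and Lactation at 0.982%.

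**Figure D1:**
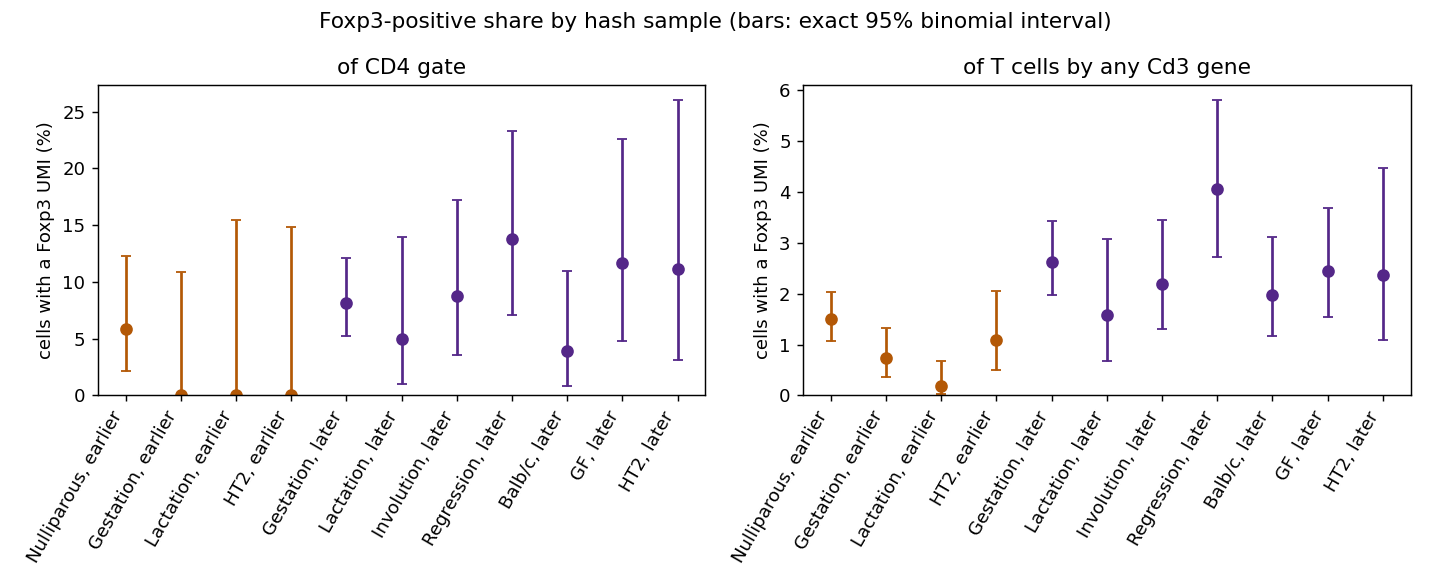
Percent of cells with at least 1 Foxp3 UMI (vertical axis) in each hash sample, in the CD4 gate and among T cells with any Cd3 gene, with exact 95% binomial intervals as bars; HT2 is drawn for completeness. Regression has the highest value in both sets, at 13.8% and 4.06%.

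The other members were also read by gate. Ctla4, the inhibitory receptor, was at 0.627 (Nulliparous), 0.198 (Gestation) and 0.459 (Lactation) in the earlier library's CD4 gate. The later library's levels were 1.46 for Gestation, 0.659 for Lactation, 2.23 for Involution, 2.74 for Regression, 0.972 for Balb/c and 1.99 for GF. In the CD8 gate, Ctla4 spanned 0.0520 to 0.215 in the earlier and 0.168 to 0.471 in the later library, and within each sample the CD4 gate was the higher of the pair. Tnfrsf4 was at 0.965, 0.595 and 0.688 in the earlier library's CD4 gate (Nulliparous, Gestation, Lactation) and between 0.505 and 1.86 in the later one, against at most 0.104 and 0.184 in the CD8 gate. Ikzf2 was at 1.35, 0.595 and 0.688 in the earlier library's CD4 gate, and at 2.66, 1.98, 2.90, 4.23, 1.87 and 5.67 in that of the later one (Gestation, Lactation, Involution, Regression, Balb/c, GF). GF was highest and Balb/c lowest of the latter 6. Icos ran from 0.917 to 1.78 in the earlier and from 1.52 to 3.79 in the later library's CD4 gate. Il2ra was at 0 to 0.459 and 0.439 to 0.949 there, and at most 0.0689 and 0.0747 in the CD8 gate.

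The tests between gates used edgeR's quasi-likelihood test on UMIs summed per sample and gate, with the hash sample as a block and Benjamini-Hochberg adjustment over all genes tested. Between the CD4 and CD8 gates, 5 of the 7 members had enough counts to be tested, and all 5 were higher in the CD4 gate, where 4.66% of 3930 genes were called higher. The differences in log2 were 3.89 (SE 0.22) for Tnfrsf4, 2.54 (SE 0.18) for Ctla4, 1.87 (SE 0.19) for Ikzf2 and 1.78 (SE 0.15) for Icos, each higher in 9 of 9 samples. Tnfrsf18 was higher in 8 of 9, by 1.20 (SE 0.18). Foxp3 and Il2ra did not pass the filter on low counts in this fit. Members that were low in one gate had to be high in the other to pass it, so the count describes only those tested.

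Against the gate with neither, all 7 members were tested and 6 were higher in the CD4 gate, beside 3.26% of 7616 genes. Tnfrsf4 differed by 2.70 (SE 0.20), Ctla4 by 2.11 (SE 0.16), Foxp3 by 2.03 (SE 0.25), Icos by 1.04 (SE 0.15), Il2ra by 0.92 (SE 0.19) and Tnfrsf18 by 0.57 (SE 0.15). Foxp3 was higher in 7 of 9 samples, since the earlier library's Gestation and Lactation CD4 gates held no Foxp3 UMI. Ikzf2 was the exception, with a difference of -0.17 (SE 0.17, edgeR adjusted p = 0.685) and the CD4 gate higher in 2 of 9 samples. Its level in the gate with neither was 1.83, 2.50 and 3.46 in the earlier library (Nulliparous, Gestation, Lactation) and 2.27 to 4.10 in the later one. That gate held 53.6% and 48.2% of all Ikzf2 UMIs of the named samples in the 2 libraries, with 2220 of 12464 and 2414 of 12815 cells. It also held 30.2% and 38.1% of the Icos UMIs and 27.5% and 25.3% of the Tnfrsf18 UMIs.

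Il2ra and Tnfrsf18 were not highest in the CD4 gate. Il2ra was highest in ILC2, at 2.24, 5.47 and 6.02 in the earlier library's samples and 1.59 to 7.26 in the later library's, and a UMI was present in 40.0% and 55.4% of these cells. Over the 7 samples with at least 10 ILC2, Il2ra was lower in the CD4 gate by 2.57 in log2 (log2 difference -2.57, SE 0.35, edgeR adjusted p = 2.26e-05), in 7 of 7 samples. In that fit 12.1% of 860 genes were called lower, and Il2ra and Tnfrsf18 were the 2 of 4 tested members among them. Foxp3, Ctla4 and Tnfrsf4 had too few counts to be tested. Their levels were higher in the CD4 gate in 5, 7 and 7 of 7 samples in that order. Icos (0.05, SE 0.35, edgeR adjusted p = 0.974) and Ikzf2 (0.42, SE 0.37, adjusted p = 0.478) did not pass. ILC2 was the higher of the pair in 5 of 7 samples for Icos and in 3 of 7 for Ikzf2. Tnfrsf18 differed by -0.68 (SE 0.23, edgeR adjusted p = 0.0440), lower in the CD4 gate in 6 of 7 samples. It lost this call with the later library alone, with DESeq2 (which called 10.9% of genes lower), with no filter on low counts and with no myeloid exclusion. When Cd3-negative cells with a UMI of T cell receptor genes were also left out, neither kept its call, and Il2ra differed by -1.71 (SE 0.78, edgeR adjusted p = 0.359).

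Tnfrsf18 RNA was abundant in NK cells too. It lay between 1.27 and 1.29 in the 3 NK sums of the earlier library and between 1.36 and 1.61 in the 6 of the later one, against 0.772 to 1.19 and 0.926 to 1.64 in the CD4 gate. The difference of -0.05 (SE 0.13) did not pass the test (edgeR adjusted p = 0.862), and 4 of 9 samples were higher in the CD4 gate. A UMI of Tnfrsf18 was present in 19.6% and 35.6% of NK cells, and in 1.76% and 4.72% of B cells, which were shallower. Of the 4 members tested against NK cells, the other 3 were higher in the CD4 gate, where 12.5% of 4564 genes were. Foxp3, Il2ra and Ctla4 did not pass the filter on low counts. Members low in NK cells, such as Tnfrsf4 (20 UMIs against 237), had to be high in the CD4 gate to pass it. The count therefore describes only those tested. Tnfrsf4 differed by 4.85 (SE 0.28), Icos by 3.73 (SE 0.16) and Ikzf2 by 2.38 (SE 0.20).

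**Figure D2:**
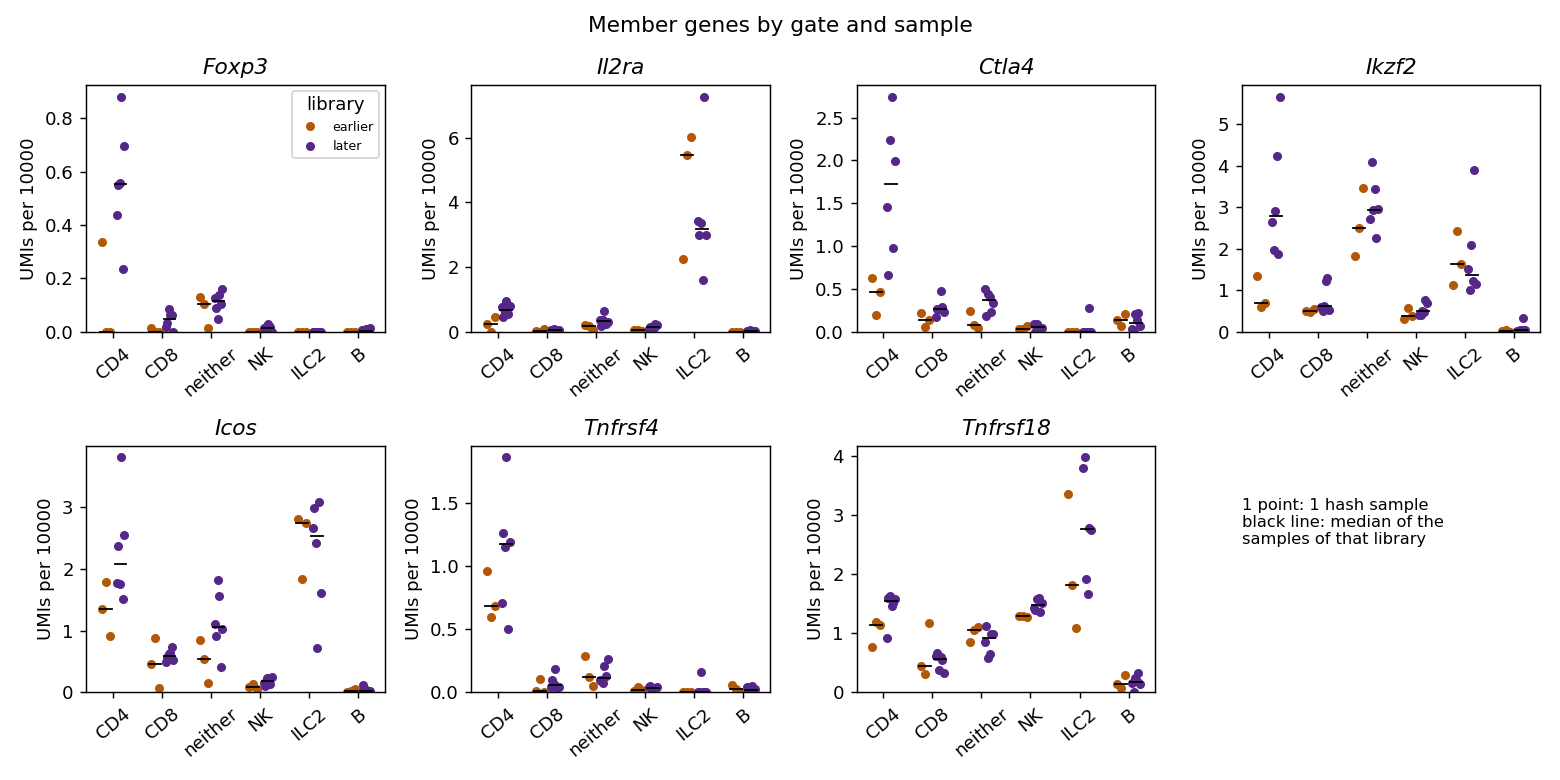
UMIs per 10000 UMIs of each member (vertical axes) in 6 gates, with 1 point per hash sample, the earlier library in orange and the later in purple, and a black line at the median of each library's samples. Il2ra is highest in ILC2 (1.59 to 7.26), Ikzf2 is high in the gate with neither (1.83 to 4.10), and Tnfrsf18 in NK cells spans 1.27 to 1.61.

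Across 54 sums of sample and gate, the genes whose levels followed Foxp3 most closely were Izumo1r (Pearson r = 0.913 of log levels), A630023P12Rik (0.870), Tnfrsf4 (0.855), Ctla4 (0.848) and Neb (0.847). These are descriptions, since sums of a sample share library and depth. Ikzf2 ranked 73 of 11415 genes, Icos 185, Tnfrsf18 4933 and Il2ra 5012.

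Foxp3-positive cells were then set against Foxp3-negative cells. In the CD4 gate, positive cells were deeper than negative cells. Their median UMIs were 2478 against 1320 in the earlier and 3592 against 2755 in the later library. Only the later library's Gestation and Regression samples had at least 10 cells of both kinds in this gate. The fit over these 2 samples called 5 of the 6 other members higher, where 4.11% of 3040 genes were called higher (2.06% of 1213 with DESeq2, which did not call Tnfrsf18, adjusted p = 0.109). The log2 differences were 3.57 for Il2ra, 3.09 for Tnfrsf4, 2.68 for Ctla4, 2.52 for Ikzf2 and 1.77 for Tnfrsf18, while Icos differed by 0.83 (SE 0.26, edgeR adjusted p = 0.0810).

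Because 2 samples are few, a broader gate was added after these counts were seen. It holds cells with any Cd3 gene and no Cd8a, Cd8b1 or Trdc UMI, whether or not Cd4 was captured. Its Foxp3-negative side also takes in cells whose Foxp3 RNA was not captured. It gave 51 and 127 Foxp3-positive cells, of which 9 and 64 had a Cd4 UMI, and 7 samples with at least 10. Positive and negative cells had similar median depths, 1540 against 1367 UMIs in the earlier and 2709 against 2680 in the later library.

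Ikzf2 was at 11.6 and 17.6 in the Foxp3-positive cells of the earlier library's Nulliparous and Gestation samples. In the later library it was at 13.2 for Gestation, 14.7 for Involution, 9.21 for Regression, 20.8 for Balb/c and 20.8 for GF. Foxp3-negative cells of the same samples lay between 1.26 and 2.53, with no overlap. Ctla4 was at 3.05 and 3.53 in the positive cells of the same earlier-library samples, and at 4.84, 8.40, 5.61, 17.5 and 6.37 in those of the later library in the order above, against 0.108 to 0.576 in negative cells. The Balb/c value, from 68 UMIs in 15 cells, was the highest of the 7.

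Il2ra was at 2.85 and 2.12 in the positive cells of the earlier library and at 3.35, 2.29, 3.52, 2.06 and 4.19 in those of the later library in the same order, against 0.172 to 0.528 in negative cells. Tnfrsf4 spanned 2.06 to 5.69 against 0.101 to 0.293. Icos was closer, at 1.93 to 5.53 against 0.683 to 1.62, and Tnfrsf18 was at 2.30 to 7.76 against 0.611 to 1.13. For each of the 6 members every positive sum lay above every negative sum, as it did for 1.08% of 7067 genes. All 6 passed the edgeR test (adjusted p of 2.51e-14 for Icos and smaller for the others), where 3.07% of 7067 genes were called higher. The log2 differences were 3.91 (SE 0.21) for Tnfrsf4, 3.80 (SE 0.18) for Ctla4, 3.18 (SE 0.21) for Il2ra, 2.82 (SE 0.16) for Ikzf2, 1.97 (SE 0.18) for Tnfrsf18 and 1.5 (SE 0.18) for Icos, each higher in 7 of 7 samples.

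Beside this result, the 4 NK marker genes summed to 0 to 3.35 UMIs per 10000 in Foxp3-positive sums and 31.5 to 179 in negative sums in the earlier library, and to 0.776 to 17.0 against 8.51 to 39.4 in the later one, over all named samples. The 4 B cell marker genes summed to 0 to 0.931 against 0.383 to 7.28 in the later library and to 0.305 to 3.92 against 0.413 to 0.704 in the earlier. The earlier library's positive sums held only 6 UMIs of these genes. Its 3.92 came from the Lactation sample, which had 2 Foxp3-positive cells and is not among the 7 samples of the fit. The part of either list in the result was not tested. With the earlier library's 2 samples alone, Icos (1.80, edgeR adjusted p = 0.411) and Tnfrsf18 (1.95, adjusted p = 0.162) lost their calls.

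**Figure D3:**
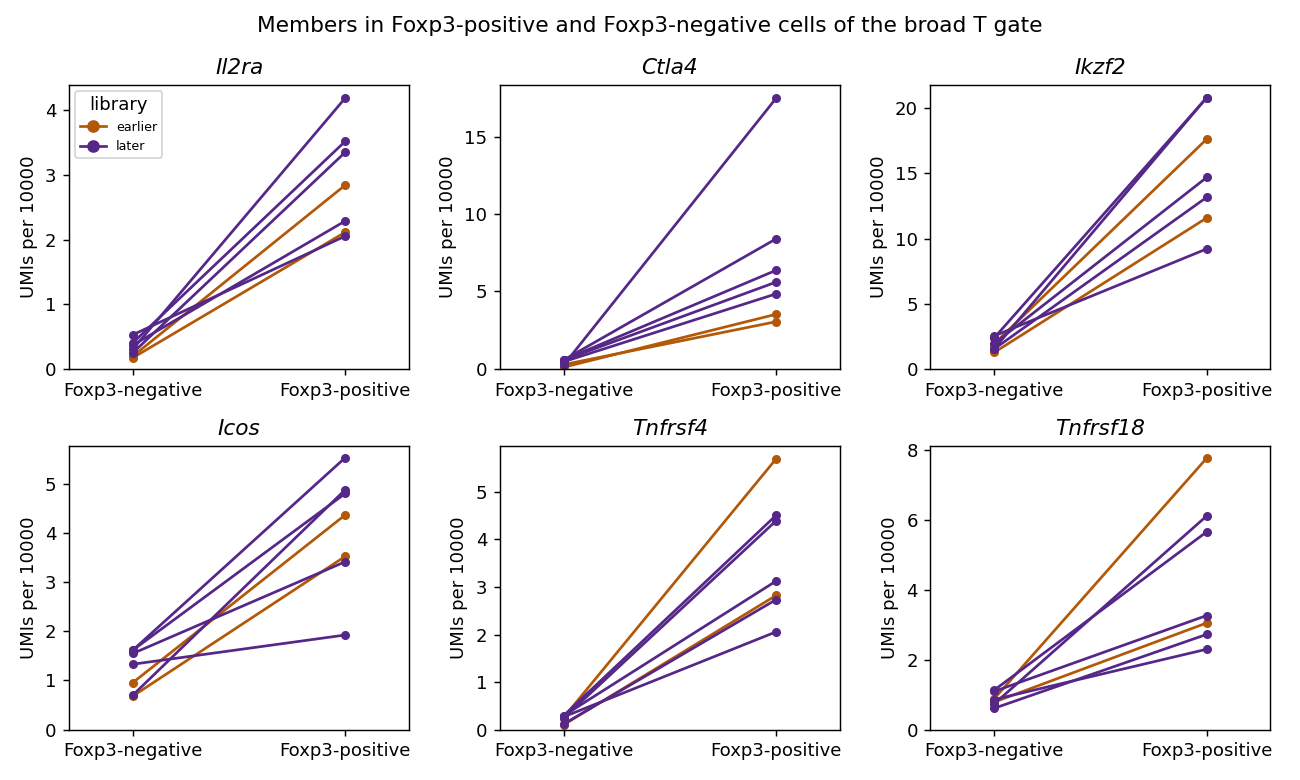
UMIs per 10000 UMIs of the 6 other members (vertical axes) in Foxp3-negative and Foxp3-positive cells of the broad gate, with a line joining the 2 sums of each of 7 hash samples. The positive sum is the higher of each pair for all 6 genes.

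Single cells carried several members together. At least 3 of the 6 other members had a UMI in 62.7% of the Foxp3-positive cells from the earlier library and in 76.4% from the later one, against 1.76% and 6.34% of the Foxp3-negative cells of the broad gate. Thinned to 1000 UMIs per cell, the shares were 41.0% and 34.9% against 0.794% and 1.08%. Ikzf2 was the member found most often, in 78.4% and 84.3% of Foxp3-positive cells, and Il2ra was found in 35.3% and 48.8% and Icos in 47.1% and 48.8%.

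Other Treg genes went with Foxp3 in the broad gate. Of the list of Treg identity genes, 9 of 12 were tested, 5 were higher and 1 lower (Rgs1), with a median log2 difference of 1.20 against -0.09 over all genes. Izumo1r (folate receptor 4) differed by 3.04 (SE 0.20), Nrp1 (neuropilin-1) by 2.70 (SE 0.25) and Cd5, a brake on T cell receptor signalling, by 1.23 (SE 0.19). In the CD4 gate, with 2 samples, 2 of the 8 identity genes tested were higher (Ikzf4 and Capg) and 1 lower (Rgs1), with a median of 0.60. There Izumo1r (0.73, edgeR adjusted p = 0.196), Nrp1 (1.23, adjusted p = 0.0879) and Cd5 (0.46, adjusted p = 0.257) did not pass. Of 16 tested genes of effector and tissue Treg cells, 10 were higher and 1 lower (Gzmb), with a median of 1.32. Areg, the growth factor amphiregulin, differed by 4.07 (SE 0.27) and was higher in 6 of 7 samples. Ebi3, a subunit of interleukin-35, differed by 4.07 (SE 0.46), Il1rl1, the interleukin-33 receptor, by 2.46 (SE 0.30) and Maf by 1.39 (SE 0.17), each in 7 of 7 samples. Of 11 effector and tissue genes tested in the CD4 gate, 2 were higher, Ebi3 and Il1rl1, with a median of 0.59, and Areg (0.99, edgeR adjusted p = 0.314) and Maf (-0.23, adjusted p = 0.654) did not pass.

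The lists of naive and central T cell genes and of helper lineage genes held falls and no rise. Of 8 naive and central genes tested in the broad gate, 3 fell and none rose. Their log2 differences were -1.65 (SE 0.22) for Tcf7, -1.04 (SE 0.34) for Bach2 and -0.81 (SE 0.19) for Il7r, the interleukin-7 receptor, and the list's median was -0.55. Of 4 helper genes tested, 3 fell, with differences of -3.61 (SE 0.58) for Ifng, -1.63 (SE 0.39) for Tbx21, the T-bet transcription factor, and -1.03 (SE 0.34) for Cd40lg, and the median was -1.33. Among other costimulatory genes, 2 of 4 tested rose, Tnfrsf1b by 1.44 (SE 0.24) and Cd27 by 0.64 (SE 0.21, higher in 5 of 7 samples), with a median of 0.47. With DESeq2 the calls of Bach2 (adjusted p = 0.151), Cd40lg (0.183, higher in 1 of 7 samples) and Cd27 (0.347) were lost. The broad gate's counts stand beside 3.07% of genes called higher and 4.58% called lower. Over the 2 samples of the CD4 gate, 5 of 7 naive and central genes tested fell, with a median of -1.78. Of 3 helper genes tested there 1 fell, Ifng, and of 3 costimulatory genes none passed. Of 3040 genes, 99 were called lower there. Tnfrsf1b (1.41, edgeR adjusted p = 0.0919), Cd27 (0.31, adjusted p = 0.606) and Cd40lg (-2.13, adjusted p = 0.0592) did not pass. S1pr1 fell there but did not pass in the broad gate (0.14, adjusted p = 0.813).

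Beyond the lists, the genes with the largest rises in every sample included Neb, which encodes nebulin (3.88, SE 0.40), and Spock2 (3.29, SE 0.43), Dst (2.58, SE 0.36), Ecm1 (2.54, SE 0.36), Nav2 (2.17, SE 0.31) and Stx11 (2.05, SE 0.37). Of these 6, Neb was tested in the CD4 gate and did not pass (1.69, edgeR adjusted p = 0.0656). Among the largest falls, Trgv2 and Trgc1, genes of the T cell receptor gamma chain, had 0 UMIs in the Foxp3-positive cells, at least 9.34-fold and 8.29-fold lower than in negative cells with a floor of 3 counts over the group. Large rises in the CD4 gate's 2 samples included Fabp5 (4.41), Lmna (3.12), Ybx3 (2.73), Uhrf1 (2.68), Myo5a (2.58), Cenph (2.46), Hells (2.39) and Cdca7 (2.39). Each rested on 12 to 49 UMIs in positive cells. In the broad gate Fabp5 (1.53), Lmna (1.10), Ybx3 (0.87), Uhrf1 (1.79), Hells (1.48) and Cdca7 (1.23) passed too. Myo5a (0.71, edgeR adjusted p = 0.372) did not pass there, and Cenph was not tested.

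Ikzf2 separated the T cell populations further. The question was whether Ikzf2 RNA differed between Foxp3-positive cells and T cells with Cd8a or Trdc. Over the 7 samples, Ikzf2 was higher in broad-gate Foxp3-positive cells than in Cd8a cells by 3.32 in log2 (SE 0.16) and than in Trdc cells by 2.85 (SE 0.18), in 7 of 7 samples each, where 4.99% of 4070 and 5.29% of 2383 genes were called higher. The exact two-sided sign-flip permutation test of the log2 ratio gave p = 0.015625 for both, the smallest that 7 samples allow. In the CD4 gate as first defined, with 2 samples, the differences were 2.68 (SE 0.23) and 2.07 (SE 0.21), where 4.22% and 3% of genes were called higher, and the exact permutation p = 0.5 is the smallest possible.

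Cd8a cells were not uniform. Those without a Cd8b1 UMI had Ikzf2 at 1.70, 2.24 and 4.72 in the earlier library's Nulliparous, Gestation and Lactation samples, and at 4.42, 3.37, 3.15, 4.82, 2.64 and 3.55 in Gestation, Lactation, Involution, Regression, Balb/c and GF samples of the later one. Those with Cd8b1 had 0.185 to 0.521 in the earlier and 0.294 to 0.654 in the later library, with no overlap. The log2 difference was 2.89 (SE 0.17), higher in 9 of 9 samples, where 5.45% of 4143 genes were called higher, and the exact sign-flip permutation test gave p = 0.00390625, the smallest possible. Trdc cells lay between 1.37 and 2.67 in both libraries. Of the other members, Icos (-0.42) and Tnfrsf18 (0.37) were tested in this split and did not pass. In no sample did the level in Cd8a cells without Cd8b1 or in Trdc cells reach the lowest level of Foxp3-positive cells, 9.21.

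**Figure D4:**
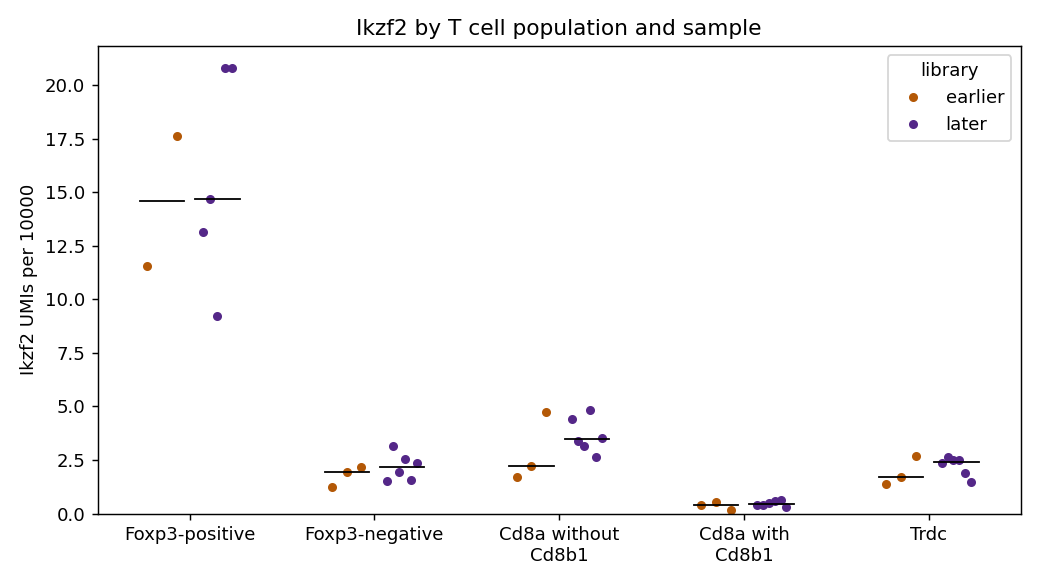
Ikzf2 UMIs per 10000 UMIs (vertical axis) in T cell populations of each hash sample with at least 10 cells in the population. Foxp3-positive cells span 9.21 to 20.8, Cd8a cells without Cd8b1 1.70 to 4.82, Trdc cells 1.37 to 2.67 and Cd8a cells with Cd8b1 0.185 to 0.654.

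Lactation and Gestation are the names with a sample in both libraries, and the remaining stages can only be described. With the year as a block, no member was called in any of 4 gates: 0 of 3 tested in the CD4 gate, 0 of 3 in the CD8 gate, 0 of 7 in the gate with neither and 0 of 3 in NK cells. By unadjusted p, 3 members of the gate with neither were under 0.05 and none of the other gates' was. The genes called were 0.7% of 1856, 0.295% of 3724, 0.0226% of 8847 and 0.05% of 8006 in that order. At an unadjusted p under 0.05, 77, 158, 387 and 387 genes passed with edgeR, and DESeq2 called 1, 0, 1 and 0 genes, none of them a member (0.0539%, 0%, 0.0113% and 0%). On simulated counts, the fit of the gate with neither recovered 26.26% of 2-fold and 92% of 4-fold changes. Changes of about 2-fold would therefore mostly be missed there, and the missing calls do not show that levels were equal. The changed genes were drawn at random from all genes tested. For members with few UMIs, such as Foxp3 (9 in Lactation and 41 in Gestation), larger changes may be missed too.

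In the gate with neither, Foxp3 was at 0.102 in Gestation and 0.0139 in Lactation in the earlier library, and at 0.126 and 0.0892 in the later one. The earlier Lactation value came from 1 of 605 cells. Ctla4 was at 0.0820 and 0.0485 and at 0.493 and 0.178 likewise, and Il2ra at 0.164 and 0.0485 and at 0.354 and 0.191. All 3, and Icos and Tnfrsf4, were lower in Lactation in both libraries, while Ikzf2 and Tnfrsf18 were higher. The make-up of this gate differed between the samples. Trdc had a UMI in 10.3% of Gestation and 18.8% of Lactation cells in the earlier library, and in 15.5% and 11.2% in the later one. The part of this make-up in the levels was not tested. The fitted differences were -1.35 (SE 0.66) for Foxp3, -1.27 for Ctla4 and -1.22 for Il2ra, and Icos differed by -0.88 while Ikzf2 differed by 0.52. None passed the adjusted test (edgeR adjusted p from 0.916 to 0.997 over the 7 members).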

How the data were processed

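The authors deposited raw UMI counts per gene and barcode for 2 libraries, 2021 (earlier) and 2022 (later), with hash tag counts and tag sheets; the submitters' processing notes name Cell Ranger 6.1.0 and mm10, and the header of the 2021 gene matrix names Cell Ranger 4. Barcodes with at least 500 UMIs, 300 genes and at most 10% mitochondrial UMIs were kept, tags were assigned with Seurat 5.3.0, and doublets by tag and by Scrublet (7.83% and 6.87% of cells) were removed. Genes sharing a symbol (234 entries) were left out. Counts were summed per hash sample and gate with at least 10 cells and tested with edgeR 4.0.16 (TMM, filterByExpr) under R 4.3.3; DESeq2 1.42.0 was an alternative. Tests were checked on simulated data with known changes, placed in genes drawn at random from those tested. The Lactation fit of the gate with neither recovered 26.26% of 2-fold and 92% of 4-fold changes. The broad Foxp3 fit recovered 31.63% and 94.68%. Intervals are exact binomial at 95%. SEs (standard errors) are the absolute log2 difference over the square root of the edgeR test's F value. In the broad Foxp3 fit and the Lactation fit of the CD4 gate, edgeR pooled the spread wholly over genes (infinite prior degrees of freedom). The CD4 gate Foxp3 fit had 1 residual degree of freedom beside a prior of 10.5. Sums from gates of a sample come from the same tag, so the hash sample was the block; Lactation and Gestation had the library year as the block. Named genes are the 7 members, the 10 largest rises and 5 largest falls called with the same sign in every sample, and up to 4 genes of each fixed list. The members and the lists were chosen with earlier results of these data known.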

Additional observations from a re-analysis of the deposited data

Results flagged for a closer look

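In 29 groups of samples checked for one that stands apart, 2 did; chance gives about 1 in 20. The log2 ratio of Tnfrsf18 between the CD4 gate and ILC2 was -2.19 in the earlier library's Nulliparous sample, far below the other 6 samples, in a sum of 11 ILC2. The log2 ratio of Ikzf2 between broad-gate Foxp3-positive cells and Cd8a cells was 2.61 in the Regression sample, below the other 6 samples.

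In 6 of 16 comparisons of Lactation with Gestation, the log2 ratio had opposite signs in the 2 libraries, and the difference between the libraries was not tested. In the CD4 gate, the earlier and the later library gave 0.211 and -0.409 for Ikzf2, -0.867 and 0.425 for Icos, and -0.0302 and 0.8 for Tnfrsf18. In the CD8 gate, Ikzf2 was 0.245 and -0.227, and Icos was -3.14 and 0.255. In NK cells, Ikzf2 was -0.594 and 0.0204.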

How the results depend on the processing

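Of the main results, 200 alternatives gave the same result and 15 moved it. For numbers of called members, the same result allowed a modest change, as from 6 to 4. Lost calls of single members named above can therefore be among the 200. The number of members called fell from 5 to 2 (CD4 against CD8) and from 6 to 1 (CD4 against neither) with the earlier library alone. Against NK cells it rose from 3 to 6 with no filter on low counts and to 5 with the later library alone. Against ILC2, where both main calls were lower in the CD4 gate, it went from 2 to 1 with at least 1000 UMIs per cell, no myeloid exclusion or DESeq2. It went to 0 with the earlier library alone or without T cell receptor genes. With no filter it was 4, counted in either direction. Of these, only Il2ra was lower in the CD4 gate, while Foxp3, Ctla4 and Tnfrsf4 were higher there. Tnfrsf18 was not among them. Ikzf2 in cells of 1000 to 4000 UMIs differed by 3.96 from Cd8a cells (2.68 in the CD4 gate; leaving out a sample, 2.32 to 2.97) and by 2.63 from Trdc cells (2.07; 1.93 to 2.19). The earlier library's Foxp3 share of the CD4 gate was 0 thinned to 500 UMIs, against 2.26% thinned to 1000. Signs turned for uncalled members: Icos, Lactation against Gestation in the CD4 gate with DESeq2 (-0.073), Tnfrsf4 in the gate with neither by any Cd3 gene (0.0836), Tnfrsf18 in NK cells with tags by highest count (0.081), Ikzf2 in CD4 against neither by any Cd3 gene (0.0181) and with the later library alone (0.0214), Tnfrsf18 in CD4 against NK without T cell receptor genes (0.24), and Icos in CD4 against ILC2 by any Cd3 gene (-0.0035) and DESeq2 (-0.0762). Without the replicate block, members called were 0 in each Lactation comparison, 5 (CD8), 5 (neither), 3 (NK), 2 (ILC2), 5 and 6 (Foxp3-positive, CD4 and broad gates), and Tnfrsf18 lost its call against the gate with neither (0.46, edgeR adjusted p = 0.124). DESeq2 called 44 genes in the CD4 gate Foxp3 fit, against 224.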
